A study of Rattus norvegicus with 3 samples.

Results

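Pou3f1, Pou3f2, Pou3f3 and Pou3f4 encode the class III POU transcription factors, also called Oct6, Brn2, Brn1 and Brn4, and their UMIs (unique molecular identifiers, each standing for 1 captured RNA molecule) were counted cell by cell in rat cortex before birth. The 4 genes were taken by symbol, and each was found among the 29772 genes of the deposited matrices. The cells came from cortex of wild-type rat embryos, dissociated with papain, and were made into 3 libraries labelled E14, E16 and E18, for embryonic days 14, 16 and 18. The groups share the wild-type genotype and carry no treatment, and each label has 1 library. How many embryos each library pooled is not given in the sources used here.

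A class III POU protein binds DNA through a POU-specific domain and a homeodomain joined by a flexible linker, and the family reads variants of the octamer motif, often next to a partner factor such as a Sox protein. In the developing cortex, Pou3f2 and Pou3f3 are known to act redundantly in progenitors and in migrating neurons, where they are needed for the neurons of the upper layers. Pou3f1 is known from Schwann cells, where it drives the step to myelination, and from cortical projection neurons, and Pou3f4 from the inner ear and from progenitors of the ventral forebrain.

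Cells were kept if they had 1000 detected genes or more and mitochondrial UMIs made up no more than 10%, and after removal of likely doublets 4286, 4977 and 5431 cells were left in label order, with a median of 10477 to 12264 UMIs. Values given as a run of 3 are in the order E14, E16, E18 throughout. Of 25 clusters, 23 were named from marker genes. In every library that held a class, its markers were higher in that class than in the rest. This held for all 11 radial glia, 10 intermediate progenitor, 8 newborn neuron and 13 maturing neuron markers. Because the same markers gave the names, it is no independent check of them. Known stage genes went against the label order: radial glia had 12.3, 225 and 21.6 CPM (UMIs of the gene in 1000000 UMIs of the class) of the early gene Hmga2 and 731, 17.1 and 240 CPM of the late gene Aldoc. The libraries are therefore named by their labels, and no direction in age is drawn from them. Radial glia came mostly from clusters 0, 1 and 10 in the library labelled E16. In the other libraries they came mostly from clusters 2 and 6, so that class and library are partly the same thing. Pairs of libraries shared 7 or 8 cell barcodes. With 1 library per label there is no replicate error, and intervals are exact Poisson or binomial 95% intervals that cover counting error only. Levels are CPM of the UMIs summed over a class, and they are compared across cells for 1 gene at a time, never between genes.

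Pou3f1 was higher in the neuronal lineage than in radial glia in all 3 libraries. Radial glia, the dividing stem cells of the ventricular zone, held 28.5 CPM of it in the library labelled E14 (interval 24.2 to 33.2, 378 cells), 1.52 CPM in that labelled E16 (1.18 to 1.91, 3040 cells) and 3.81 CPM in that labelled E18 (3.09 to 4.66, 1767 cells). Intermediate progenitors, the neuron-producing daughters of radial glia, held 134, 50.8 and 70.8 CPM. Excitatory neurons, newborn and maturing cells pooled, held 247 CPM (242 to 252, 2811 cells), 84.6 CPM (77.1 to 92.7, 598 cells) and 54.8 CPM (51.7 to 57.9, 2257 cells). This pool held 1553, 0 and 433 maturing cells, so that for the label E16 it was newborn neurons alone, here and below. Within each library the order was thus radial glia, then intermediate progenitors, then pooled neurons, except that in the library labelled E18 the pooled neurons lay below the intermediate progenitors. Newborn neurons alone had 69.4 CPM there, close to the intermediate progenitors. Under the stricter cell filter the order also turned for the label E16, with 43.7 CPM in 316 intermediate progenitors and 35.3 CPM in 195 neurons.

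A low level can be RNA from broken cells carried over in the droplets, so the 60 endothelial and microglial cells (26 and 34 cells), which should lack these genes, were measured in the same way. They held 27.9 CPM of Pou3f1 in the library labelled E14 (16.8 to 43.5, from 19 UMIs in 3 of 20 cells), 0 in that labelled E16 (0 to 6.66, 24 cells) and 7.56 CPM in that labelled E18 (1.56 to 22.1, 16 cells). The radial glia values of Pou3f1 lay inside the intervals of these few cells for all 3 labels, so that a level above background was not detectable by this measure. Over all 60 cells the level was 13.5 CPM of Pou3f1, 6.74 CPM of Pou3f2, 11.6 CPM of Pou3f3 and 0.613 CPM of Pou3f4.

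With every cell thinned to 2000 UMIs, so that depth did not differ, a Pou3f1 UMI was found in 4.56%, 0.199% and 0.914% of radial glia, in 22.0%, 8.52% and 13.3% of intermediate progenitors and in 37.3%, 10.6% and 11.6% of excitatory neurons. Without thinning, the share of excitatory neurons was 75.7%, 24.6% and 29.7%. In the 60 endothelial and microglial cells, whose median depth was 18262 UMIs before thinning, the thinned share was 1.67% (1 cell). For the label E14 it was 0 of 20 cells, with an exact upper limit of 16.8%, which spans the 4.56% of radial glia. Of radial glia and excitatory neurons, 5 to 21 cells per library and class were too shallow to thin.

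Pou3f2 was present in progenitors as well as in neurons, and its level ranged more widely between libraries than between radial glia, intermediate progenitors and excitatory neurons of 1 library. Radial glia held 275 CPM in the library labelled E14 (262 to 290) against 52.9 and 132 CPM in those labelled E16 and E18. Intermediate progenitors held 371, 98.6 and 179 CPM, and excitatory neurons 289, 96.4 and 75.8 CPM. The intermediate progenitors were above the radial glia in each library. Thinned shares followed the same order across libraries in radial glia, with a Pou3f2 UMI in 38.9%, 10.1% and 21.9% of cells, and in intermediate progenitors, with 48.0%, 14.1% and 27.2%. Of excitatory neurons, 40.8%, 14.8% and 14.1% had one, against 0 of the 60 endothelial and microglial cells.

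The Pou3f2 gene has a neighbour, the noncoding gene LOC102553820, whose level ran with it across cell classes, as described further on. RefSeq's promoter table for the GRCr8 assembly, which is not the build of the counts, holds both genes and is used only for their sequence. The 2 windows are shown because the genes start 1753 bases apart on opposite strands and read away from each other. Each is the 250 bases before the start, 5′ to 3′ on the gene's own strand, with matches to the searched motifs in capitals.
Pou3f2, chr5:40880540-40880789, minus strand: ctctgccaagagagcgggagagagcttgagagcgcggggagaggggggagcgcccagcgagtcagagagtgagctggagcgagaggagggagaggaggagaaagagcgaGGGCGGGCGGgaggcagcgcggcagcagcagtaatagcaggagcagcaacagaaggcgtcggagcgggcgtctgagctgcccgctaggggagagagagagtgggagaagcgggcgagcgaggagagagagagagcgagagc
LOC102553820, chr5:40882042-40882291, plus strand: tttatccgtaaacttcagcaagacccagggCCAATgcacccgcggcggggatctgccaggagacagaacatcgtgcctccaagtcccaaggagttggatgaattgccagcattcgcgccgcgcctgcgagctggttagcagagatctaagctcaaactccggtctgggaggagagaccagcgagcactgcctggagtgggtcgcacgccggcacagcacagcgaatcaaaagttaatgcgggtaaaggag
The Pou3f2 window is 66.8% G or C and the LOC102553820 window 58%, against a median of 51.2% over the 33469 promoters of the table. The capitals in the Pou3f2 window are 2 overlapping GC boxes (GGGCGG, the core of an Sp1 motif), which begin 141 and 137 bases before the start. The capitals in the other window are 1 CCAAT box, 220 bases before the start. On either strand, 30.5% of all windows of this length hold GGGCGG and 34.0% hold CCAAT, so that both matches are common letters. The octamer ATGCAAAT, the classical POU motif, is in 1.56% of all windows and TATAAA in 12.9%, and neither is in these 2 windows. The table holds 2 of the 4 Pou3f genes, and the window of Pou3f4 is not shown because no result turns on it.

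Pou3f3 showed the smallest spread between libraries in progenitors. Radial glia held 184, 139 and 174 CPM and intermediate progenitors 226, 146 and 168 CPM, while excitatory neurons held 169, 66.6 and 74.8 CPM. At 2000 UMIs per cell, 29.8%, 22.4% and 29.7% of radial glia had a Pou3f3 UMI, as did 32.0%, 23.4% and 29.1% of intermediate progenitors and 30.0%, 11.0% and 16.2% of excitatory neurons. The share was 3.33% (2 cells) in the endothelial and microglial cells.

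Pou3f4 was low in the excitatory lineage and, for the labels E14 and E16, highest in GABAergic cells, the inhibitory neurons that migrate in from the ventral forebrain. These held 48.3 CPM (29.5 to 74.6, 58 cells), 106 CPM (81.2 to 135, 75 cells) and 13.7 CPM (5.02 to 29.8, 73 cells). Radial glia held 25.1, 13.8 and 16.5 CPM, intermediate progenitors 15.7, 17.0 and 9.25 CPM and excitatory neurons 5.01, 16.004 and 6.24 CPM. The GABAergic level was above all 3 of these classes in the libraries labelled E14 and E16, with an interval that just touched that of radial glia (21.1 to 29.6) for the label E14. In the library labelled E18 its interval spanned the radial glia level. A Pou3f4 UMI was found in 10.3%, 18.9% and 2.78% of thinned GABAergic cells, in 8.04%, 3.01% and 3.14% of radial glia and in 1.04%, 2.87% and 1.47% of excitatory neurons. Of the 60 endothelial and microglial cells, thinned alike, 0 had one, with an exact upper limit of 5.96%, and their intervals of 0 to 5.41 CPM for the label E14 and 0.0638 to 14.03 CPM for the label E18 hold the neuron levels. Over all 60 cells the interval was 0.0155 to 3.41 CPM, below the neuron levels of each library, so that for the labels E14 and E18 the reading depends on whether these cells are pooled. For the label E16 the neuron level (12.8 to 19.7) was above the interval of the 24 cells there, 0 to 6.66 CPM.

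GABAergic cells were also read for the other members, with 50.7, 31.9 and 4.56 CPM of Pou3f1, 53.1, 62.1 and 4.56 CPM of Pou3f2 and 109, 95.6 and 79.8 CPM of Pou3f3. The values of Pou3f1 and Pou3f2 for the label E18 rest on 2 UMIs each and do not show that the genes were present. Cajal-Retzius cells, the early neurons of the marginal zone, held 9.12 and 6.70 CPM of Pou3f1, 46.4 and 24.6 CPM of Pou3f2 and 49.4 and 35.7 CPM of Pou3f3 in the libraries labelled E16 and E18. Choroid plexus cells, an epithelium of the ventricle, were near background, with 6.67 and 4.88 CPM of Pou3f2 and 8.78 and 3.66 CPM of Pou3f3 in the same libraries.

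**Figure D1:**
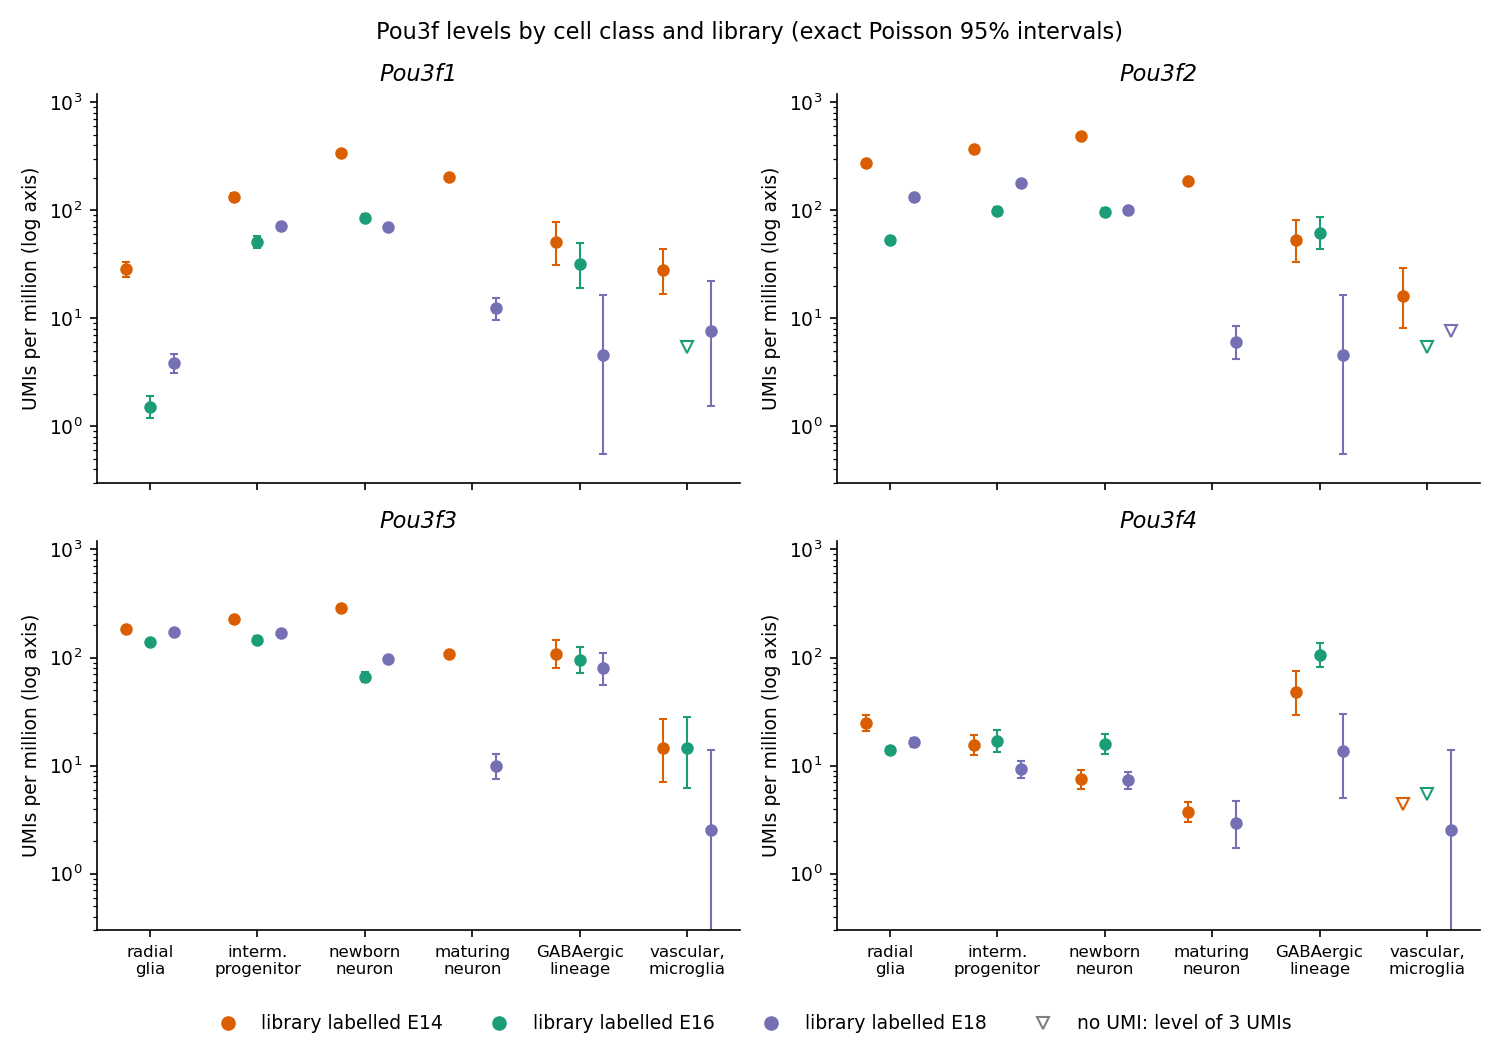
Level of each Pou3f gene (CPM, log axis) by cell class, with 1 point per library and exact Poisson 95% intervals for counting error; open triangles stand at the level of 3 UMIs where no UMI was found. Pou3f1 lies far lower in radial glia than in newborn neurons in each library (28.5 against 335 CPM for the label E14), while Pou3f2 and Pou3f3 are present in both.

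Neurons were next set against radial glia within each library, as a log2 ratio of CPM with 1 CPM added. The make-up of both classes still differed by library. The neurons included 1553, 0 and 433 maturing cells, and radial glia labelled E16 came mostly from other clusters. Pou3f1 was higher in excitatory neurons by 3.07, 5.09 and 3.53 (mean 3.90, SD 1.06, n = 3 libraries, higher in 3 of 3). Pou3f2 had ratios of 0.07 (−0.01 to 0.15), 0.85 (0.72 to 0.99) and −0.79 (−0.87 to −0.71), a mean of 0.04 with an SD of 0.82, and thus no common direction. Pou3f3 had ratios of −0.13, −1.05 and −1.20 (mean −0.79, SD 0.58), lower in the pooled neurons in each library. With newborn neurons alone the ratios were 0.64, −1.05 and −0.83 for Pou3f3 and 0.83, 0.85 and −0.39 for Pou3f2. Pou3f4 had ratios of −2.12, 0.20 and −1.27 (mean −1.06, SD 1.17), lower in 2 of the 3. By the few endothelial and microglial cells, Pou3f1 in radial glia could not be told from background in any of the 3 libraries. Its ratios and their mean are therefore given with no background subtracted.

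These ratios stand against a wide difference between the classes over all genes. A gene was counted as higher or lower when it differed at least 2-fold, among genes with a mean of at least 5 CPM in the groups compared. In the library labelled E14, 13.7% of 10169 genes were higher in neurons and 20.8% were lower, and of the 4 members Pou3f1 was higher and Pou3f4 lower. For the label E16 the shares were 14% higher and 16.4% lower, with Pou3f1 higher and Pou3f3 lower. For the label E18 they were 14% and 17.3%, with Pou3f1 higher and Pou3f3 and Pou3f4 lower. The median of all genes was −0.20 for the label E14, the side on which Pou3f3 also lay, and within 0.1 of 0 for the other labels.

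The steps along the lineage differed among the genes. From radial glia to intermediate progenitors, the log2 ratio of Pou3f1 was 2.19, 4.36 and 3.90 and that of Pou3f2 was 0.43, 0.88 and 0.44, both higher in each library. Pou3f3 differed little at this step, with 0.30, 0.08 and −0.05, and Pou3f4 had −0.64, 0.28 and −0.77. From intermediate progenitors to newborn neurons, Pou3f1 had 1.32, 0.73 and −0.03, Pou3f2 had 0.40, −0.03 and −0.83, and Pou3f3 had 0.34, −1.12 and −0.79. For the label E14 the last step depended on the clustering: at Leiden resolution 2, newborn neurons and intermediate progenitors held 70.1 and 386 CPM of Pou3f2 and 175 and 226 CPM of Pou3f3, against 490 and 371 CPM and 287 and 226 CPM in the values above. Under the looser cell filter Pou3f3 was at 225.1 and 231.5 CPM and Pou3f1 at 108 and 157 CPM, the reverse of its order above.

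Between libraries, the same cell class held different amounts of Pou3f1 and Pou3f2, with the library labelled E14 highest. In radial glia, Pou3f2 was 5.13-fold higher in the library labelled E14 than in that labelled E16, with 1 CPM added to both levels as in all these ratios (log2 −2.36 for E16 over E14). Pou3f1 had a ratio of −3.55, which the added 1 CPM makes smaller than its levels of 28.5 and 1.52 CPM alone would give. Pou3f3 and Pou3f4 differed by −0.41 and −0.81. The Pou3f1 level for the label E14 lay inside the interval of the endothelial and microglial cells there, and the part of background RNA in its ratio was not tested. Of 9896 genes, 7.16% were at least 2-fold lower in the library labelled E16 and 2.45% higher, and the median of all genes was −0.12. For E18 over E14 the radial glia ratios were −2.61, −1.06, −0.09 and −0.58 for Pou3f1 to Pou3f4, where 3.27% of genes were lower and 1.05% higher. The Pou3f2 ratio was short of 2-fold in 3 other settings, at −0.93 with a looser cell filter and −0.98 both with finer clusters and with more doublets removed. Both of these comparisons use the library labelled E14. For E18 over E16, Pou3f2 was higher by 1.30, Pou3f3 by 0.32 and Pou3f4 by 0.24, where 1.96% of genes were higher and 0.712% lower, and Pou3f1 was under the 5 CPM needed for the count.

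Excitatory neurons showed 3 of the 4 genes highest in the library labelled E14. Pou3f1, Pou3f2 and Pou3f3 were 4.45-fold, 3.78-fold and 2.24-fold higher there than in the library labelled E18 (log2 −2.15, −1.92 and −1.16 for E18 over E14), and Pou3f4 had a ratio of 0.27. The Pou3f3 ratio was −0.91 with coarser clusters and −0.83 with more doublets removed, short of 2-fold in both. Over all genes, 2.58% were lower and 3.23% higher in that comparison. For E16 over E14, with newborn neurons alone for the label E16, the ratios were −1.53, −1.58 and −1.33, and Pou3f4 was higher by 1.5. Over all genes, 6.29% were lower and 6.79% higher there. Under the stricter cell filter Pou3f4 was at 9.71 against 5.59 CPM, and with each library clustered alone Pou3f3 was at 93.1 against 152 CPM, both short of 2-fold. For Pou3f1 to Pou3f3 the libraries labelled E16 and E18 lay closer together, with −0.62, −0.34 and 0.16 for E18 over E16, while Pou3f4 had −1.23, where 2.8% of genes were lower and 3.04% higher. These values depended on the setting: under the stricter filter the labels E16 and E18 had 35.3 and 42.1 CPM of Pou3f1, 62.9 and 74.98 CPM of Pou3f2 and 9.71 and 5.26 CPM of Pou3f4, and with each library clustered alone 127.6 and 62.9 CPM of Pou3f2. Intermediate progenitors had E16 over E14 ratios of −1.38, −1.90 and −0.63 for Pou3f1 to Pou3f3 and E18 over E14 ratios of −0.91, −1.05 and −0.43. Pou3f2 was thus highest for the label E14 in each of the 3 classes, while for Pou3f3 in radial glia the E18 over E14 interval, −0.18 to 0.01, includes 0.

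**Figure D2:**
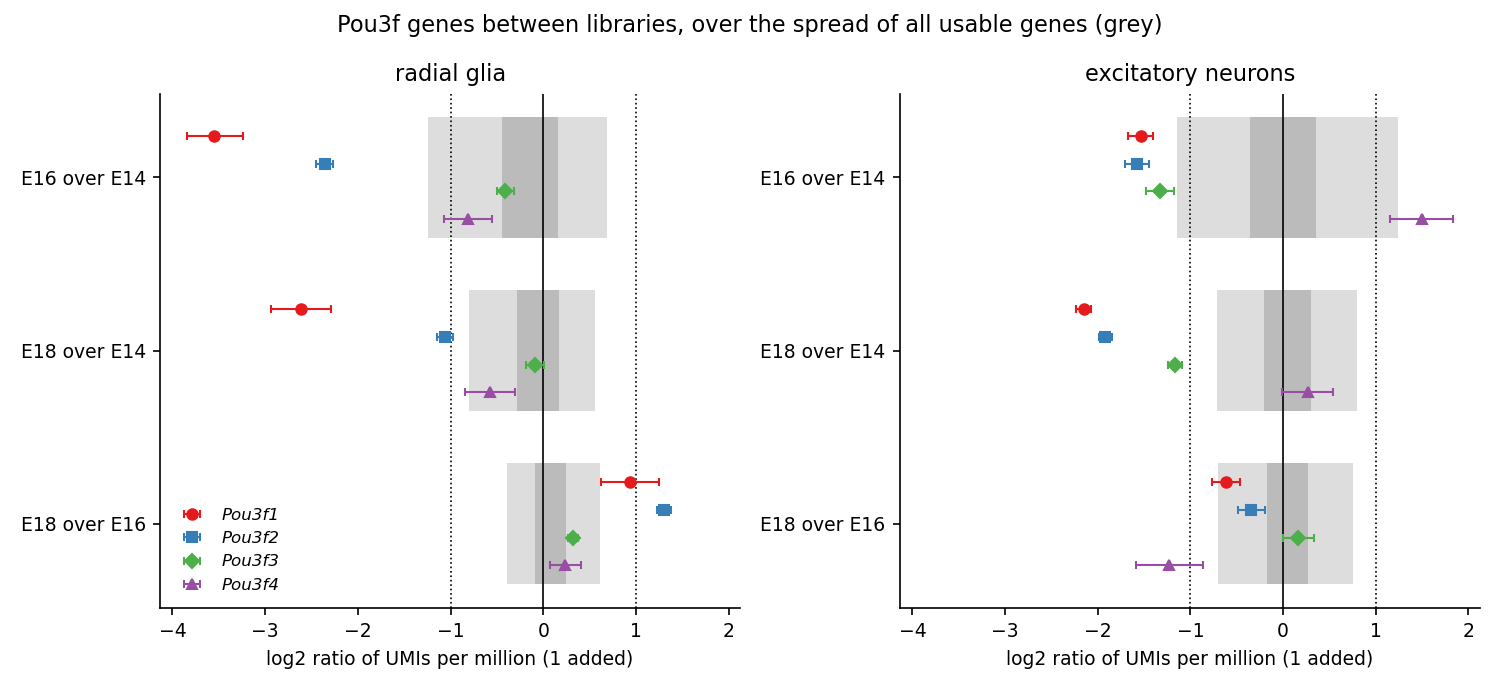
Log2 ratio of CPM (1 CPM added) between pairs of libraries for each Pou3f gene in radial glia (left) and excitatory neurons (right), with 95% intervals for counting error; dotted lines mark 2-fold, dark grey bars the middle 50% of all usable genes and light grey bars their 5th to 95th percentile. Pou3f1 and Pou3f2 lie left of 0 in both comparisons with the library labelled E14, down to −3.55 for Pou3f1 in radial glia.

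Several measures differed between the libraries alongside these levels. Excitatory neurons had a median of 7.12%, 5.80% and 5.75% mitochondrial UMIs and 12442, 8588 and 8892 UMIs per cell, and radial glia had 5.30%, 3.59% and 4.41%. Among excitatory neurons, the summed level of 8 erythroid markers, of which 8, 7 and 7 had a UMI, was 359, 217 and 146 CPM. Epor was at 0 for the labels E16 and E18. In radial glia the same sum was 66.4, 147 and 113 CPM, in another order. Summed microglial markers were 1.07 to 2.58 CPM, endothelial 2.23 to 2.76 CPM and mural 1.38 to 2.39 CPM in excitatory neurons. GABAergic markers were at 9.22, 13.1 and 3.74 CPM there, highest for the label E16, as Pou3f4 was, with 8, 7 and 8 of 10 markers having a UMI and Nkx2-1 at 0 for each label. Choroid plexus markers were at 0.193, 24.5 and 53.5 CPM and meningeal markers at 0.578, 9.75 and 8.69 CPM there, lowest for the label E14. In radial glia they were at 1.79, 16.03 and 40.2 CPM and 3.22, 9.63 and 5.48 CPM, also lowest for the label E14, and mural markers at 33.1, 28.4 and 31.2 CPM. The part of these differences in the result was not tested. A cluster of 529 cells, 518 of them labelled E14, could not be named and was left out of the classes. Its cells labelled E14 held 301, 597 and 282 CPM of Pou3f1 to Pou3f3, each above the pooled neurons of that library. The other unnamed cluster, 297 of whose 346 cells were labelled E16, held 3.5, 70.9, 58.7 and 30.2 CPM of Pou3f1 to Pou3f4 in that library.

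The pooled neurons hold clusters that differ in identity, and the Pou3f levels differed among them. Bcl11b, also called Ctip2, a zinc finger protein of subcerebral deep layer neurons, is used here to describe the clusters. The clustering left out the members but not Bcl11b, and what follows has no test. For the label E14, cluster 3 (1059 newborn neurons) held 397, 631 and 326 CPM of Pou3f1, Pou3f2 and Pou3f3, with 171 CPM of Bcl11b. Cluster 8 (824 maturing neurons) held 290, 250 and 130 CPM, with 76.8 CPM of Bcl11b. Cluster 9 (720 maturing neurons) held 114, 124 and 86.5 CPM, with 710 CPM of Bcl11b. The 3 genes were thus higher in both clusters with little Bcl11b than in the Bcl11b-rich cluster 9 of the same library. Cluster 17, described next, does not keep to that order, since its Pou3f3 level was above that of cluster 8.

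The neuron clusters with at least 50 cells labelled E16 or E18 all held more Bcl11b than clusters 3 and 8. The main newborn cluster labelled E16, cluster 12 with 595 cells, held 84.5, 96.1 and 65.3 CPM of Pou3f1 to Pou3f3, with 952 CPM of Bcl11b. The genes most raised in it were Calb1, Calb2, Lhx9, Ebf1 and Nxph4, which were not among the leading genes of the other newborn clusters. Of the clusters labelled E18, cluster 7 (824 newborn neurons) held 92.7, 167 and 141 CPM with 794 CPM of Bcl11b, and cluster 4 (910 newborn neurons) 60.8, 61.7 and 75.2 CPM with 1078 CPM of Bcl11b. Cluster 15 (416 maturing neurons) was low, with 9.70, 5.93 and 8.80 CPM of the 3 genes, 1151 CPM of Bcl11b and 1007 CPM of Sox5, a factor of deep layer neurons. Cluster 17, a small newborn cluster in both libraries, held 152, 61.1 and 172 CPM of the 3 genes with 547 CPM of Bcl11b in 186 cells labelled E14 and 3.81, 7.62 and 18.3 CPM in 75 cells labelled E18. Set beside the Bcl11b-rich cluster 9 labelled E14, the Bcl11b-rich clusters 12, 4 and 15 had less of Pou3f1, Pou3f2 and Pou3f3, while cluster 7 had more Pou3f2 and Pou3f3.

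**Figure D3:**
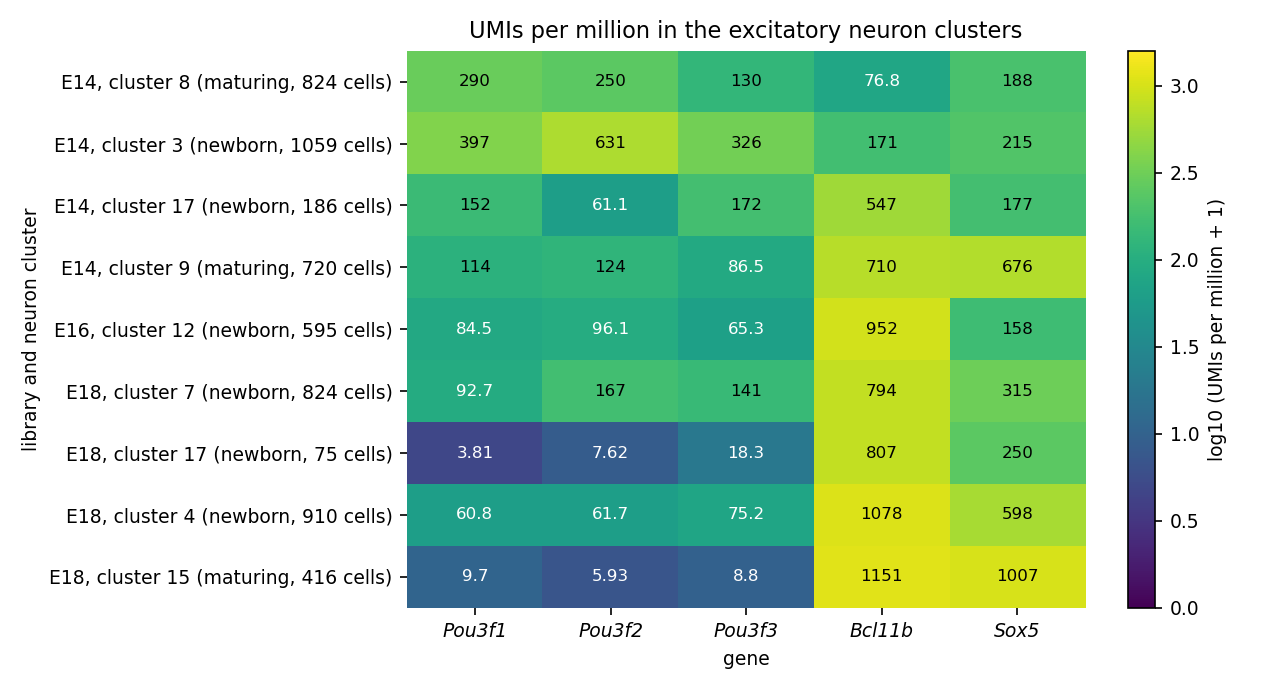
Heat map of the excitatory neuron clusters of each library (vertical axis) and the named genes (horizontal axis), with each cell coloured by log10(CPM + 1) and marked with its CPM. Clusters 3 and 8 labelled E14, which hold the least Bcl11b, have the most Pou3f1 and Pou3f2, up to 631 CPM of Pou3f2, and clusters 15 and 17 labelled E18 the least, down to 3.81 CPM of Pou3f1.

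Maturing neurons held less of the 3 genes than newborn neurons in the library labelled E18, and in that labelled E14 the order depended on how the clusters were drawn. Pou3f1 was at 335 CPM in newborn and 202 CPM in maturing neurons for the label E14 and at 69.4 and 12.3 CPM for the label E18. Pou3f2 was at 490 and 187 CPM, and at 99.9 and 6.07 CPM, and Pou3f3 at 287 and 108 CPM, and at 97.2 and 9.89 CPM. The log2 ratios of maturing over newborn neurons were −0.73, −1.38 and −1.40 for the label E14 and −2.40, −3.84 and −3.17 for the label E18. The split into newborn and maturing cells labelled E14 depended on the clustering: 14 to 1258 cells were called newborn, and in settings with at least 20 such cells their Pou3f1 level ran from 108 to 335 CPM, below as well as above the maturing level of 202 to 239 CPM. Pou3f2 turned as well, with 70.1 CPM in newborn and 269 CPM in maturing neurons at Leiden resolution 2, while over these settings Pou3f3 ran from 175 to 287 CPM in newborn and from 108 to 162 CPM in maturing neurons. For the label E18 the newborn level of Pou3f1, 62.2 to 88.8 CPM, was above its maturing level, 10.8 to 39.4 CPM, in 7 of 7 settings.

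Whether the genes were read in the same cells was described at 2000 UMIs per cell. Among newborn neurons, a Pou3f2 UMI was found in 64.4% of cells with a Pou3f1 UMI and 50.8% of cells without for the label E14, in 39.7% (27.6 to 52.8) and 11.9% for the label E16 and in 27.5% and 15.4% for the label E18. Pou3f3 was likewise found more often with Pou3f2 than without it, in 50.1% against 37.4%, 20.5% against 9.31% and 28.9% against 17.5%. In radial glia the same pair showed less contrast, with 30.3% against 29.4%, 26.8% against 21.9% and 34.4% against 28.4%. Inside single clusters the Pou3f1 and Pou3f2 pairing was seen in some: cells of cluster 3 with Pou3f1 had Pou3f2 in 69.7% (65.6 to 73.6) against 61.1% (56.7 to 65.3), those of cluster 12 in 36.8% against 12.05% and those of cluster 7 in 39.2% against 23.0%. In cluster 8 the shares were 35.2% and 33.5%, in cluster 4, the largest newborn cluster labelled E18, 17.9% and 12.3%, and in cluster 17 labelled E14 14.3% and 10.9%, with overlapping intervals in each. In cluster 9 they were 28.0% (20.1 to 37.0) and 13.0% (10.4 to 15.9). Pou3f3 with and without Pou3f2 was at 50.4% and 46.4% in cluster 3 and 15.9% and 10.5% in cluster 12, also overlapping, but at 29.1% (21.0 to 38.2) and 11.3% (9.16 to 13.7) in cluster 4 and 36.7% (30.1 to 43.6) and 22.6% (19.4 to 26.2) in cluster 7.

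Counted together, 14.6% of newborn neurons labelled E14 had a UMI of each of Pou3f1, Pou3f2 and Pou3f3 at this depth and 17.1% had none. The labels E16 and E18 had 0.843% and 1.32% with all 3 and 72.2% and 61.5% with none. Radial glia had none in 41.3%, 70.1% and 55.3% of cells and all 3 in 0.268%, 0 and 0.0571%. Intermediate progenitors had all 3 in 5.33%, 0.243% and 2.0% of cells and none in 30.3%, 60.8% and 45.5%, and for the labels E16 and E18 their share with none was below those of radial glia and newborn neurons. Of maturing neurons labelled E18, 94.1% had none of the genes, against 46.1% of those labelled E14.

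**Figure D4:**
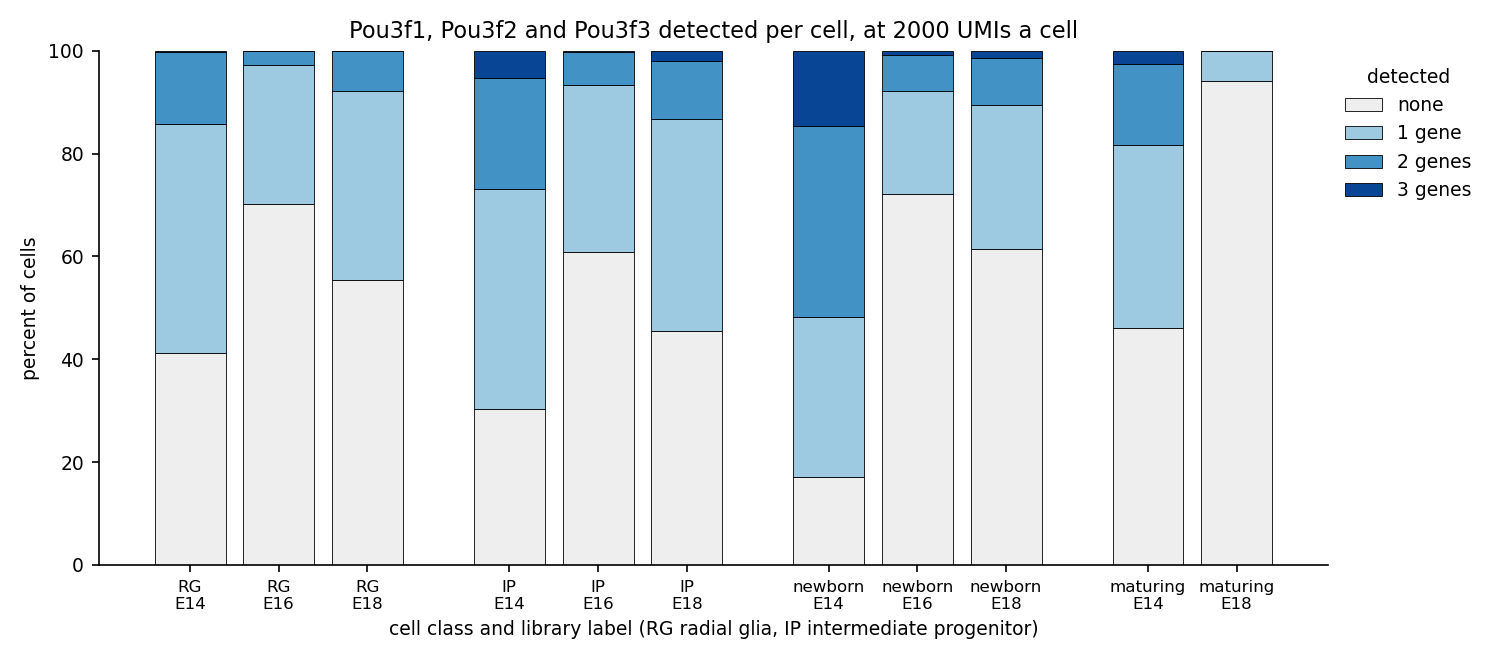
Percent of cells with a UMI of none, 1, 2 or 3 of Pou3f1, Pou3f2 and Pou3f3 at 2000 UMIs per cell, by class and library, as bars that add to 100%. Newborn neurons labelled E14 have the smallest share without any (17.1%) and the largest with all 3 (14.6%).

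Layer identity genes were set beside the members in the maturing neurons labelled E14, which span clusters with much and with little Bcl11b. Bcl11b was found in 21.2% of 452 cells with a Pou3f1 UMI and 43.8% of 1097 cells without. Sox5 lay in the same direction, with 33.0% against 54.1%, as did Fezf2, the selector of subcerebral neurons, with 18.6% against 34.2%. Cux1, an upper layer homeodomain factor, went the other way and was found in 18.6% against 8.93%. For Pou3f2, Bcl11b was found in 23.1% of cells with it and 42.6% without, and Cux1 in 19.3% and 8.90%. Pou3f3 showed a smaller contrast for Bcl11b, with 29.6% and 38.9%, and for Cux1 13.9% and 11.3%, where the intervals overlapped. Cells with a UMI of Pou3f1 or Pou3f2 thus held the deep layer gene Bcl11b less often and Cux1 more often.

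Much of this contrast lay between the clusters. Within cluster 8 alone, Bcl11b was found in 7.67% of cells with Pou3f1 and 8.05% without, and within cluster 9 in 61.0% and 67.6%, with overlapping intervals in both. Pou3f2 kept a contrast inside cluster 9, where Bcl11b was found in 53.2% (43.4 to 62.7) of cells with it and 69.0% (65.1 to 72.6) without, while in cluster 8 the shares were 6.74% and 8.49%, with overlapping intervals. For Pou3f3 the shares were 4.97% and 8.71% in cluster 8 and 55.9% and 68.5% in cluster 9, again with overlapping intervals. Newborn neurons labelled E16 held Tbr1, a deep layer T-box factor, in 69.8% of cells with Pou3f1 and 55.7% without.

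The genes whose pattern was most like each member were ranked by Pearson's r of log2(CPM + 10) over 20 class-by-library groups of at least 50 cells. They were ranked among 6149 other genes with a mean of at least 20 CPM over these groups. These groups share 3 libraries, so r is a description and carries no test. For Pou3f3 the first was Pantr1 (r = 0.97), the noncoding gene next to it in the annotation, then LOC102547455 (0.90), Pou3f2 (0.89), Tmem131l (0.87) and Cdkn1b (0.84). For Pou3f2 the first was its own divergent neighbour LOC102553820 (0.92), whose promoter is printed above, then Ikzf5 (0.89), Pou3f3 (0.89), Pantr1 (0.87) and LOC102547455 (0.86). For Pou3f1 they were Rprm (0.85), LOC120094677 (0.84), Pou3f2 (0.82), Neurod6 (0.81) and Sorl1 (0.81), of which Rprm is a cell cycle inhibitor and Neurod6 a bHLH factor of excitatory neurons. Pou3f4 was itself under that mean of 20 CPM, so its r values rest on low levels. Its list included LOC103691768 (0.77), Nrxn3 (0.72), LOC100912227 (0.72) and Dlx5 (0.72), of which Dlx5 is a homeobox gene of GABAergic cells. Among the members themselves r was 0.67 for Pou3f1 with Pou3f3, and 0.18, 0.29 and 0.46 for Pou3f4 with Pou3f1, Pou3f2 and Pou3f3.

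Of the noncoding neighbours, LOC102553820 and Pantr1 had enough UMIs to be ranked. LOC102553820 was at 177, 38.4 and 87.7 CPM in radial glia and 58.8, 29.2 and 16.7 CPM in excitatory neurons, highest for the label E14 in both, as Pou3f2 was. Relative to radial glia it was lower in neurons in each library, which Pou3f2 was only for the label E18. Pantr1 was at 132, 70.1 and 141 CPM in radial glia, 158, 70.3 and 125 CPM in intermediate progenitors and 98.7, 35.9 and 48.8 CPM in excitatory neurons. In radial glia the intervals for the labels E14 and E18 overlapped for Pantr1 (123 to 142 and 136 to 146 CPM). They also overlapped for Pou3f3 (173 to 196 and 169 to 179 CPM), so that no difference in order between the genes is shown. LOC102548116, next to Pou3f1, was low, at 10.6, 2.76 and 1.69 CPM in excitatory neurons and 1.61, 0.0427 and 0.0397 CPM in radial glia. Another noncoding neighbour of Pou3f1, LOC120103175, had 0 UMIs in these classes, and LOC120094678 and LOC103690528 beside Pou3f3 were at 0.537 CPM or less in radial glia. The protein-coding neighbours that could be ranked had lower r: Utp11, beside Pou3f1, had r = 0.38 with it and stayed at 62.3 to 78.4 CPM in radial glia and neurons, and Mrps9, beside Pou3f3, had r = 0.63 and stayed at 52.8 to 56.3 CPM. Whether counting used strand is not given in the sources used here, so reads of overlapping antisense transcripts cannot be told apart.

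**Figure D5:**
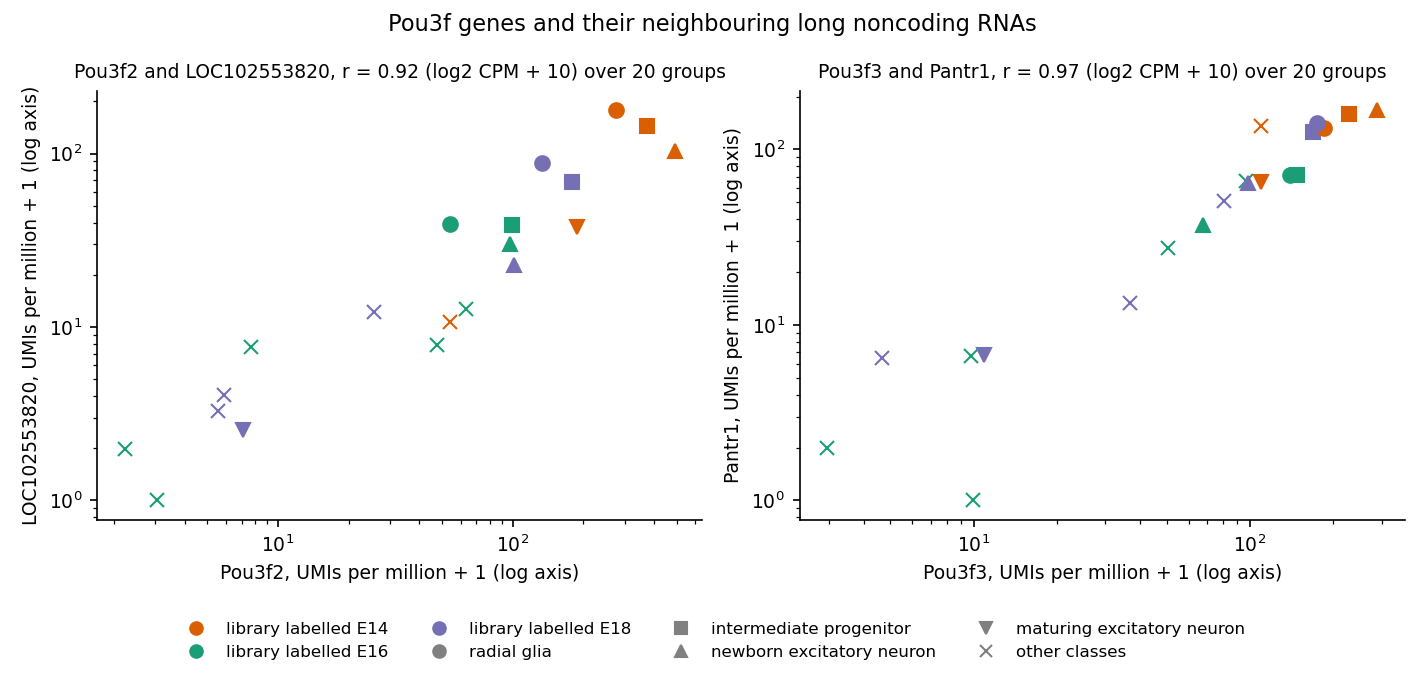
Level (CPM + 1, log axes) of Pou3f2 against LOC102553820 and of Pou3f3 against Pantr1, with 1 point per class-by-library group of at least 50 cells. In both panels the points rise together, with r = 0.92 for the first pair and 0.97 for the second.

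Other POU genes served as a first list. Of 11, only Pou2f1, Pou2f2 and Pou6f1 had enough UMIs to be counted, and 0 of these differed at least 2-fold between libraries in either class, where between 0.712% and 7.16% of all genes did in 1 direction, so that a count of 0 among so few genes sets nothing apart. Pou2f1, the ubiquitous Oct1, was at 27.1, 34.2 and 55.1 CPM in excitatory neurons. Its ratio of 1.00 on the log2 scale for E18 over E14 fell just short of the 2-fold mark and lay in the other direction from Pou3f1 to Pou3f3.

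A second list held genes of upper layer identity. In excitatory neurons, 7 of 14 usable genes were lower and 0 higher for the label E16 than for E14, with a median of −1.05, and 4 were lower and 1 higher for the label E18, with a median of −0.61, against medians within 0.1 of 0 over all genes, of which 6.29% and 2.58% were lower. Ptn, a secreted growth factor, was at 488, 69.4 and 104 CPM, Bhlhe22, a bHLH repressor, at 349.9, 204 and 252 CPM and Inhba, an activin subunit, at 17.4, 0.736 and 3.07 CPM. In radial glia, 6 of 13 were lower for the label E16 and 3 for E18 (medians −0.68 and −0.31), with 0 higher in either, where 7.16% and 3.27% of all genes were lower. Within libraries, 8 of 14, 5 of 13 and 8 of 13 of these genes were higher in neurons than in radial glia, where 13.7%, 14% and 14% of all genes were, and 2, 3 and 3 were lower, where 20.8%, 16.4% and 17.3% of all genes were. Like Pou3f1 to Pou3f3, Ptn, Bhlhe22 and Inhba were highest for the label E14.

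Genes reported as targets of class III POU factors formed another list, of which 5 were usable between libraries, and they did not move in 1 direction. In radial glia 2 of 5 were lower and 0 higher for both the labels E16 and E18 against E14 (medians −0.52 and −0.53, against −0.12 and −0.06 over all genes), where 7.16% and 3.27% of all genes were lower. Fabp7, a fatty acid binding protein of radial glia, was at 2364, 529 and 690 CPM, Hes5, a Notch effector, at 171, 81 and 118 CPM and Nes, which encodes nestin, at 323, 224 and 365 CPM. In excitatory neurons 3 of 5 lay higher and 1 lower in the comparison of E16 with E14 (median 1.62), and 1 was higher and 1 lower for E18 over E14 (median 0.16). Of all genes, 6.79% and 3.23% were higher in these comparisons and 6.29% and 2.58% lower. Dab1, the reelin signal adaptor, was at 128, 19.5 and 55.2 CPM there, and the Notch ligand Dll1 at 4.13, 51.1 and 10.4 CPM, in the opposite order.

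The last list held partner factors, of which 11 were usable. In radial glia 2 lay lower and 1 higher in the comparison of E16 with E14 (median −0.16), and 2 lower and 0 higher in that of E18 with E14, against the same shares of all genes as for the targets. Myt1l, a repressor used together with Pou3f2 in neuronal reprogramming, was at 14.3, 0.576 and 1.87 CPM, highest for the label E14. The corepressor Tle4 went the other way, at 35.1, 88.4 and 58.9 CPM. In excitatory neurons 4 lay higher and 0 lower in that of E16 with E14 (median 0.28), and 3 higher and 0 lower for E18 over E14 (median 0.25). Of all genes, 6.79% and 3.23% were higher in these comparisons and 6.29% and 2.58% lower, with medians within 0.1 of 0. Myt1 was at 16.8, 102 and 73.1 CPM there, Sox2 at 4.54, 23.2 and 10.3 CPM and Sox3 at 2.2, 11.6 and 8.51 CPM, lowest for the label E14, while Myt1l was at 316, 174 and 213 CPM.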

How the data were processed

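Droplet single-cell RNA sequencing was done on rat embryonic cortex with 10x Genomics 3′ kits and a NovaSeq 6000, per the labels' protocols, which also describe culture, multiplexing and sorting of human cells; which of those steps applied is not known. The deposited files hold raw UMI counts per gene and barcode, not normalized, made with Cell Ranger 6.0.1 per the file headers and on build mRatBN7.2 per the submitters' processing notes; the annotation is not given in the sources used here. Total counts were 62740631, 80974234 and 73727823 for the labels E14, E16 and E18.

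Of 7100, 6707 and 6937 barcodes, 4444, 5193 and 5690 passed the filters. Doublets were scored with Scrublet and the top 0.8% per 1000 cells, 158, 216 and 259 cells, were removed, since its own threshold marked 2.54%, 0.0385% and 2.65%. Cells were clustered on 2000 variable genes, with the members and list genes left out, 30 principal components and 15 neighbours with Leiden resolution 1 (scanpy 1.11.5, leidenalg 0.10.2, igraph 0.11.9, scikit-learn 1.9.0, numpy 2.4.6, scipy 1.17.1, pandas 2.3.3, Python 3.11.15, matplotlib 3.10.9). Clusters were named from 120 symbols of 14 classes, a marker counting at 1.2-fold and 20% of cells, with 3 needed. Counting scripts were tested on simulated data. The members and lists were chosen with earlier results of these data known. Named list genes are those with the 3 largest ratios or at least 200 CPM, and 5 genes per member by likeness. Some of the genes so chosen are not reported here. No p-value was computed. Tried alternatives were other cell filters, doublet rates, clusterings, scalings and thinning depths. RefSeq (GRCr8) gave names, neighbours and 2 promoters only.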

Additional observations from a re-analysis of the deposited data

Results flagged for a closer look

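Pou3f2 in excitatory neurons against radial glia pointed in different directions between libraries. Its log2 ratio of CPM was 0.0698 for the label E14, where the interval includes 0, 0.8529 for the label E16 and −0.7887 for the label E18. The difference was not tested, since each label has 1 library. Under the stricter cell filter the levels labelled E16 were 62.9 CPM in neurons and 55.0 CPM in radial glia, a smaller difference than in the value given. The value for the label E16 rests on newborn neurons alone, as no cell there was called maturing. Radial glia came mostly from other clusters in that library. Pou3f2 levels behind these ratios were 275, 52.9 and 132 CPM in radial glia and 289, 96.4 and 75.8 CPM in excitatory neurons.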

How the results depend on the processing

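Among 12 ratios (E18 over E14 in excitatory neurons and in radial glia, and neurons over radial glia) and 4 detected shares, no ratio past 2-fold changed sign under the alternatives run. The split of neurons labelled E14 was less stable: at Leiden resolution 2, Pou3f2 was at 70.1 CPM in newborn and 269 CPM in maturing cells, against 490 and 187 CPM. Leiden resolution 2 and a total without mitochondrial, ribosomal protein and haemoglobin UMIs moved 0 of those 12 ratios by more than their counting interval or spread. The following log2 ratios of E18 over E14 in excitatory neurons moved by more than their counting interval. Pou3f1 (−2.15) was −2.05 at Leiden resolution 0.5, −2.40 under the stricter cell filter, −1.99 with 2 times the doublets removed and −2.27 with each library clustered alone. Pou3f2 (−1.92) was −1.66, −2.35, −1.54 and −2.01 under the same settings, −1.81 under the looser filter and −2.04 with unnamed clusters given their best class, a setting chosen after seeing the data. Pou3f3 (−1.16) was −0.91 at resolution 0.5, −1.03 under the looser filter, −0.83 with more doublets removed and −1.24 with best classes. Pou3f4 (0.27) was −0.074 under the stricter filter and 0.55 with more doublets removed, so it has no stable direction. In radial glia Pou3f2 (−1.06) was −1.19 under the stricter and −0.93 under the looser filter, and it was under 2-fold there, at Leiden resolution 2 and with more doublets removed (−0.98 in both). The stricter filter left 79, 195 and 611 excitatory neurons. Detected shares depend on depth: at 1000 and 4000 UMIs per cell, 22.1% and 55.9% of excitatory neurons labelled E14 had Pou3f1, 24.6% and 56.5% Pou3f2, 17.8% and 47.4% Pou3f3 and 0.462% and 2.10% Pou3f4. Naming of clusters under the alternatives used a reference set after seeing the data. The cause of these shifts was not tested. No paired analysis was possible because each label has 1 library.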
